A study of Mus musculus with 2 samples.

Results

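Janus kinases and STAT factors carry cytokine signals from the cell surface to the nucleus, and 9 genes of these families were followed in 2 populations of mouse spleen dendritic cells (DCs). The members were the STAT genes Stat2, Stat3, Stat4, Stat5a, Stat5b and Stat6 and the kinase genes Jak1, Jak2 and Tyk2, a list given by name. All probe sets (groups of short oligonucleotide probes for a transcript) that the platform annotation assigned to exactly 1 of these genes were taken. They came to 20 of the 45101 probe sets on the array, for 9 of the 18194 genes with a single-gene probe set. Other genes of these families were not analysed here.

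The populations were CD8+ DCs and CD8- DCs from the spleens of C57BL/6 mice. Both groups of cells came from mice that carried B16 melanoma cells (a mouse tumour line) producing Flt3L, the ligand that drives DC growth, so expansion by a tumour-borne cytokine was common to both. After 10 to 12 days, DCs were enriched on magnetic columns and sorted as CD3- B220- CD11c+ cells, positive or negative for CD8a, and the labels call both unstimulated. Each population was measured on 1 array from total RNA, labelled as biotinylated cRNA. No value has a replicate, no test was made, and differences between the populations cannot be told apart from differences between mice, sorts or hybridisations. The sources used here do not give the age or sex of the mice, any genetic change in them, or how many were pooled for a sort.

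A Janus kinase sits on the inner tail of a cytokine receptor. When ligand brings receptor chains together, the kinases phosphorylate each other, the receptor and the STAT proteins that dock there. Phosphorylated STATs pair, enter the nucleus and bind DNA. In DCs this route serves interferons, IL-6 and IL-10, IL-12, GM-CSF and IL-4, with STAT3 acting downstream of Flt3 ligand as well. Most of this control is by phosphorylation, which arrays of RNA do not measure.

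The values are log2 signals from RMA, a method that removes background, gives arrays 1 common distribution by quantiles and summarises each probe set's probes. A gene counted as measured where its higher value was at or above 3.85, the table's overall median and the floor used here, and the probe set with the highest mean stood for the gene. The arrays had medians of 3.86 in CD8+ DCs, against 3.83 in CD8- DCs. Of the surface marker genes for the subsets, Cd8a gave a log2 signal of 11.29 in CD8+ DCs, against 5.15 in CD8- DCs. In the CD8+ DC marker list, 6 of 7 measured genes were higher by 2-fold or more in CD8+ DCs, and in the CD8- DC marker list 6 of 7 were lower there by that much. All 6 conventional DC markers lay above the floor on both arrays and differed between them by under 2-fold. The markers went in the direction of the sort labels, but most were not absent from the other population. All 7 measured CD8+ DC markers were above the floor in CD8- DCs too, the highest at 8.90. Of the 7 CD8- DC markers, 4 were above it in CD8+ DCs, the highest at 5.80.

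Stat4 separated the populations and the other members did not come near it. Stat4, the STAT that acts downstream of IL-12 and type I interferon, was at least 13.6-fold lower in CD8+ DCs. No other member reached 2-fold in either direction. Stat5a and Stat5b were lower in CD8+ DCs by under 2-fold, Tyk2 was the single member higher there, and Stat2, Stat3, Stat6, Jak1 and Jak2 differed by less than 1.5-fold. All 9 members were measured, Stat4 through its CD8- value alone.

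Of the 9 members, 1 was lower in CD8+ DCs by 2-fold or more and 0 were higher by that much, against 5.97% and 3.55% of the 11404 measured genes. At 1.5-fold, 3 members were lower (Stat4, Stat5a and Stat5b) and 1 was higher (Tyk2), against 11.5% and 8.49% of measured genes. By any amount, 8 of 9 members were lower in CD8+ DCs, as were 44.8% of measured genes. At the level of probe sets 18 of 20 were lower, against 46.9% of measured single-gene probe sets. The probe sets of a gene share its transcript and are not independent of each other. The median log2 difference of the members, CD8+ minus CD8-, was -0.30, and that of all measured genes was 0.03.

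**Figure D1:**
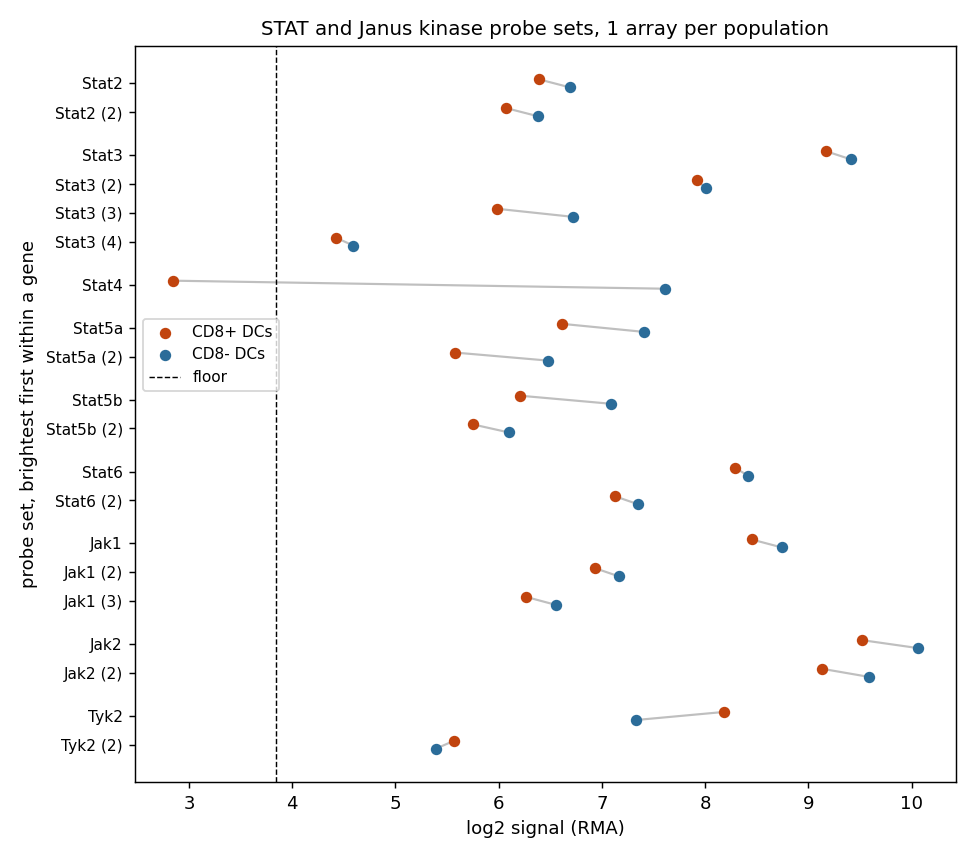
Log2 signal (x axis) of each of the 20 probe sets of the members (y axis, brightest first within a gene, later ones numbered) in CD8+ DCs (orange, upper point) and CD8- DCs (blue, lower point), 1 array each; the dashed line is the floor of 3.85. Stat4 has the long line, with its CD8+ point below the floor, and the Tyk2 probe sets alone have the orange point on the right.

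Stat4 gave a log2 signal of 2.84 in CD8+ DCs, against 7.61 in CD8- DCs, a log2 difference of -4.77. The CD8+ value lay below the floor, in the range of background, so the bound of at least 13.6-fold uses the floor in its place. Of all measured genes, 33 (0.289%), Stat4 among them, were lower in CD8+ DCs by as much or more. With sub-floor values raised to the floor, a setting added for this rank after its value was seen, the difference was -3.77 and the number was 54 (0.474%). Stat4 was represented by 1 probe set, so no other probe set of the gene bears on the value. Over these 2 arrays, likeness of pattern can be no more than nearness of the log2 difference. The 3 measured genes nearest to Stat4 were Fabp5, a fatty acid binding protein gene, Ltb, which encodes lymphotoxin β, and Tlr1, a receptor for bacterial lipopeptides. Their log2 signals were 3.90, 5.19 and 3.71 in CD8+ DCs, against 8.67, 9.95 and 8.54 in CD8- DCs, with differences of -4.78, -4.76 and -4.83. The CD8+ values of Stat4 and Tlr1 were below the floor, so this order rests in part on values in the range of background. With those values raised to the floor, the 3 nearest were other genes: Ifitm6 at 6.71 in CD8+ DCs, against 10.48 in CD8- DCs, Lair1 at 3.91 and 7.74 in that order, and Cd300a at 5.69 and 9.39.

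T cells and NK cells also use STAT4, so the markers of both were read beside it. None of the 5 NK cell markers on the array (Ncr1, Nkg7, Gzma, Eomes and Klra8) lay above the floor in CD8+ DCs or in CD8- DCs, and the highest was 3.30 in CD8+ DCs, against 3.10 in CD8- DCs. The log2 of their summed signal was 5.12 in CD8+ DCs, against 4.93 in CD8- DCs. Of 7 T cell markers, 2 were above the floor on each array, Cd3e at 4.76 in CD8+ DCs, against 4.90 in CD8- DCs, and Cd5 at 3.95 and 4.87 in that order. Their summed signal had a log2 of 6.18 in CD8+ DCs, against 6.52 in CD8- DCs. Markers of other cells were mixed. Csf1r, the M-CSF receptor gene of monocytes and macrophages, was at 6.40 in CD8+ DCs, against 10.56 in CD8- DCs, and Adgre1, a macrophage adhesion receptor gene, was at 4.63 in CD8+ DCs, against 8.22 in CD8- DCs, while the other 5 of 7 markers in their list were not lower by 2-fold. Of the 7, 4 were higher in CD8+ DCs by any amount, and Cd14, the lipopolysaccharide co-receptor gene, was 2.63-fold higher there, a log2 difference of 1.39. The median log2 difference of the list was 0.10. That is the value of Fcgr1, whose other measured probe set was at -1.65. The median, the count of 4 higher and the count of 5 not lower by 2-fold therefore depend on the probe set chosen. The log2 of that list's summed signal was 11.54 in CD8+ DCs, against 12.14 in CD8- DCs. Of 6 B cell markers, Cd22 (4.41 in CD8+ DCs, against 8.89 in CD8- DCs) and Cd79b (3.28 and 6.59 in that order) were at least 2-fold lower in CD8+ DCs. Pax5 and Cd79a, which define B cells, were below the floor on both arrays. Ms4a1 went the other way, at 5.74 in CD8+ DCs, against 4.99 in CD8- DCs. Ighm, the brightest gene of the list, was at 9.83 and 9.93 in that order. The list's summed signal had a log2 of 9.99 in CD8+ DCs, against 10.64 in CD8- DCs. Of 6 plasmacytoid DC markers, Tcf4 was lower (5.47 in CD8+ DCs, against 7.55 in CD8- DCs) and Ccr9 higher (8.03 and 5.94), with a log2 summed signal of 9.08 in CD8+ DCs, against 9.09 in CD8- DCs. None of 6 neutrophil markers was above the floor on either array, and 2 of 6 melanoma markers were on each. Of 3 erythroid markers, 1 was above it in CD8+ DCs and 0 in CD8- DCs. The part of these cells in the Stat4 difference was not tested. In a bulk sample, fewer cells of a type and less RNA per cell cannot be told apart.

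**Figure D2:**
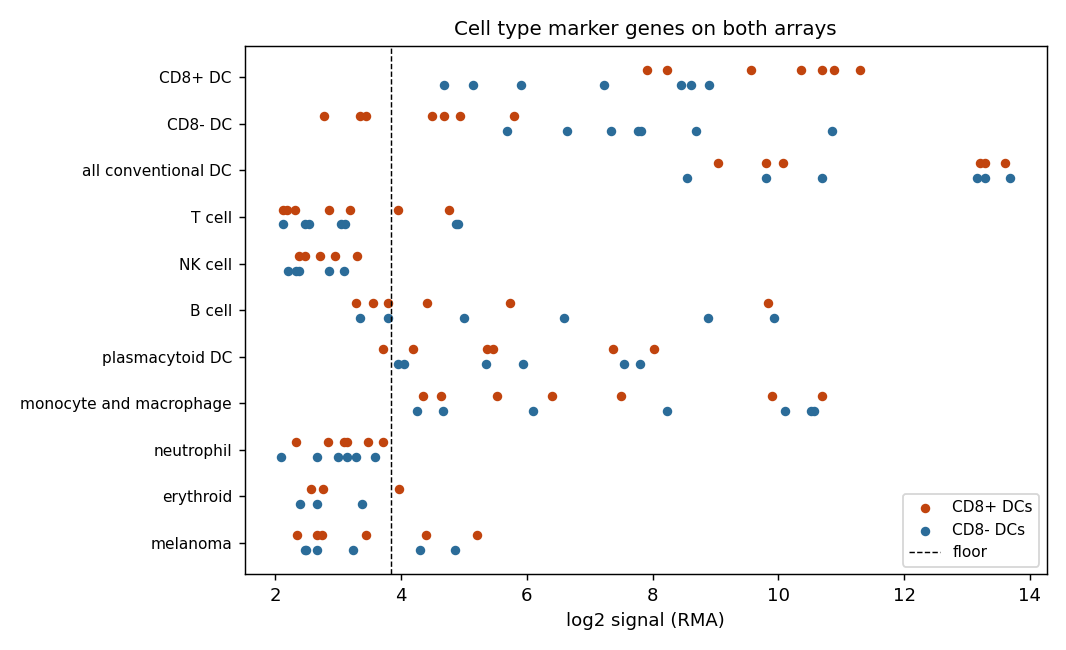
Log2 signal (x axis) of the marker genes of each cell type list (y axis) in CD8+ DCs (orange, upper points) and CD8- DCs (blue, lower points), 1 array each; the dashed line is the floor of 3.85. The NK cell and neutrophil markers all lie below the floor on both arrays. In each subset marker list, 6 of 7 genes differ by 2-fold or more in the direction of the label, and the signals of the populations overlap.

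The Stat2 and Stat4 promoters are shown because they alone, among the members, held a match to the interferon-response core, GAAA and GAAA with any 2 bases between them. RefSeq promoter windows (GRCm38.p6, from 250 bases before to 50 bases after a start) were matched by symbol for all 9 members, 12 windows in all, with 2 each for Stat4, Stat5a and Stat5b. The motif was searched on both strands and lay in 2 of the 12 windows, against 3.44% of 32851 windows of the same length. TTCNNNGAA, the palindromic core that most phosphorylated STAT dimers bind, was in 0 of the 12 and in 8.30% of all windows. The matches of the motifs could not overlap in these windows, since one was absent. The 250 bases before the start are printed below, with the match in capitals. They are chr1:52007990-52008239, plus strand, for Stat4 and chr10:128270248-128270497, plus strand, for Stat2.
Stat4: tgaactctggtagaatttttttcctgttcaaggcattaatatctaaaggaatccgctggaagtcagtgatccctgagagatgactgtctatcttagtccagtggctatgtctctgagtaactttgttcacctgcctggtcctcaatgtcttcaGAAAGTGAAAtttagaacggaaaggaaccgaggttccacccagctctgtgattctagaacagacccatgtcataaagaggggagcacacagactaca
Stat2: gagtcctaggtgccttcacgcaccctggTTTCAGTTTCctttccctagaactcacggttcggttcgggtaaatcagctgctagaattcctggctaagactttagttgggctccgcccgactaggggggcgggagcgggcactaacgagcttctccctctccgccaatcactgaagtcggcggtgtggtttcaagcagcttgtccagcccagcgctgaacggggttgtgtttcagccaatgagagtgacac

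The Stat4 match begins 97 bases before the start and reads in the direction of the gene. In Stat2 it begins 222 bases before the start, on the opposite strand. The printed Stat4 window is that of the more downstream of 2 starts, and the upstream window held no match. Which of these starts a Stat4 transcript used is not resolved by the array. These are matches of letters and not sites shown to be bound. The genes that share the motif differed in their values: Stat4 by -4.77 and Stat2, described next, by -0.30.

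Stat2, the STAT that joins IRF9 in the complex formed after type I interferon, differed by 1.23-fold. Its brighter probe set gave a log2 signal of 6.39 in CD8+ DCs, against 6.69 in CD8- DCs, and the other had 6.07 in CD8+ DCs, against 6.38 in CD8- DCs. The differences, both -0.30, were as large as the pooled SD of 0.30 between probe sets of a gene, taken over 5183 genes with several measured probe sets. Of measured genes, 21.4% were lower in CD8+ DCs by as much or more. That SD, and the spread of 45 spike-in control probe sets (0.07 ± 0.12, mean ± SD of the log2 difference over probe sets), measure the array and not the mice.

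Stat3, which serves IL-6, IL-10 and Flt3 ligand, had 4 probe sets, and all were lower in CD8+ DCs. The brightest gave a log2 signal of 9.17 in CD8+ DCs, against 9.41 in CD8- DCs. The next had 7.92 in CD8+ DCs, against 8.0 in CD8- DCs. The third had 5.99 in CD8+ DCs, against 6.72 in CD8- DCs, and the dimmest had 4.42 in CD8+ DCs, against 4.59 in CD8- DCs. Their log2 differences ran from -0.73 to -0.08, so the probe sets disagreed on size by more than the value of the brightest, -0.24. Stat6, which IL-4 and IL-13 activate, had the least difference of the members. Its brighter probe set gave a log2 signal of 8.29 in CD8+ DCs, against 8.41 in CD8- DCs, and the other had 7.13 in CD8+ DCs, against 7.35 in CD8- DCs, with differences of -0.13 and -0.23.

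Stat5a and Stat5b encode closely related proteins that act for GM-CSF and other cytokines, and both were lower in CD8+ DCs. The Stat5a probe sets had log2 signals of 6.61 and 5.58 in CD8+ DCs, against 7.40 and 6.48 in CD8- DCs. Their differences were -0.79 and -0.90, the brighter probe set corresponding to a 1.73-fold difference. For Stat5b the log2 signals were 6.21 and 5.75 in CD8+ DCs, against 7.08 and 6.10 in CD8- DCs. The differences were -0.88 and -0.35, the first of them 1.84-fold. Of measured genes, 8.09% and 7.11% were lower in CD8+ DCs by at least as much as Stat5a and Stat5b. The genes are near copies, and cross-hybridisation between their probe sets was not tested.

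Stat5b, Stat5a and Stat3 follow each other in this order in the RefSeq gene table, with no protein-coding gene between them. A stretch common to 1 promoter window of Stat5a and 1 of Stat5b is shown because these neighbours had differences of like size at their brighter probe sets, -0.79 and -0.88. At the dimmer probe sets the differences were -0.90 and -0.35, so the likeness depends on the probe set chosen. Among 63 pairs of windows from different members, the longest run of identical bases before the start, 16 bases, lay between the second window of Stat5a and the second of Stat5b. The longest run in any other pair was 12 bases. In both genes the second window is that of the more downstream start. The upstream window of Stat5b shared runs of only 11 and 7 bases with the Stat5a windows. Widened on both sides without gaps, the stretch had 46 of 53 bases in common (86.8%). It is chr11:100822571-100822623, minus strand, for Stat5b and chr11:100860422-100860474, plus strand, for Stat5a (RefSeq, GRCm38.p6), with shared bases in capitals.
Stat5b: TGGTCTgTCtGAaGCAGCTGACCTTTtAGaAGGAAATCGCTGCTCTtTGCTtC
Stat5a: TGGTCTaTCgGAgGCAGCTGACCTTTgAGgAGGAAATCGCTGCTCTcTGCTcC
The stretch ends 1 base before the start of Stat5b and 10 bases before that of Stat5a. The array does not resolve which start a transcript used.

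Among the kinases, Tyk2 went the other way from Jak1 and Jak2. Tyk2, which serves the receptors for type I interferon, IL-12 and IL-10, gave a log2 signal of 8.18 in CD8+ DCs, against 7.33 in CD8- DCs at its brighter probe set. That is a log2 difference of 0.85, or 1.80-fold, and 4.69% of measured genes were higher in CD8+ DCs by as much or more. Its dimmer probe set had 5.57 in CD8+ DCs, against 5.39 in CD8- DCs, a difference of 0.18. The direction was common to both probe sets and the size was not. Averaged over both, the difference was 0.51.

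Jak2, the kinase of the GM-CSF receptor and of the IL-12 and IFN-γ receptors, was lower in CD8+ DCs at both probe sets. The log2 signals were 9.52 and 9.14 in CD8+ DCs, against 10.06 and 9.59 in CD8- DCs, with differences of -0.55 and -0.45. Of measured genes, 12.6% were lower in CD8+ DCs by at least as much as the brighter one. Jak1, which pairs with many cytokine receptors, had 3 probe sets at log2 signals of 8.45, 6.93 and 6.27 in CD8+ DCs, against 8.75, 7.16 and 6.56 in CD8- DCs. Their differences lay between -0.30 and -0.23. In all 8 members with several probe sets, the probe sets had the same sign.

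**Figure D3:**
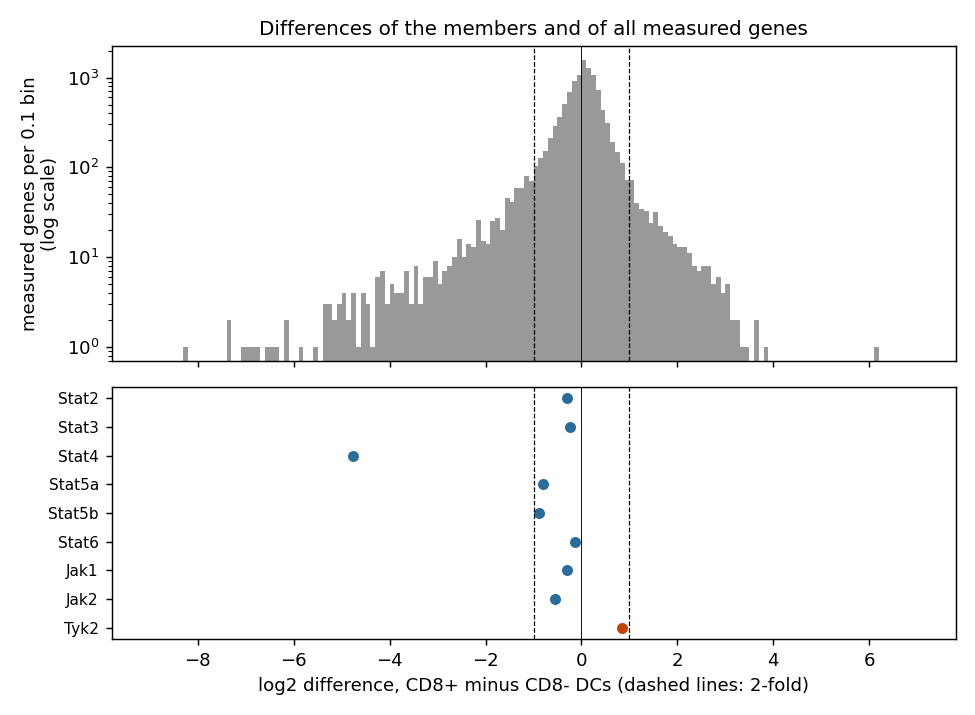
Upper panel, number of measured genes per 0.1-wide bin (log scale) by log2 difference, CD8+ minus CD8- DCs; lower panel, the members on the same x axis, orange where higher and blue where lower in CD8+ DCs. Stat4 at -4.77 lies in the left tail, and the other 8 members lie between the dashed 2-fold lines.

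Genes that lie next to the members other than Stat4, for which no neighbour is given, did not share a common direction. Beside Tyk2, Raver1 (log2 signal 5.62 in CD8+ DCs, against 5.68 in CD8- DCs) and Cdc37, an HSP90 partner that helps kinases fold (9.45 and 9.33 in that order), were near equal. Beside Stat6, the endocytic receptor gene Lrp1 was at 3.64 in CD8+ DCs, against 4.53 in CD8- DCs, whereas the EGR repressor gene Nab2 was at 5.91 in CD8+ DCs, against 5.18 in CD8- DCs. Beside Jak2, Rcl1 was at 6.19 in CD8+ DCs, against 6.52 in CD8- DCs. Apof, the apolipoprotein F gene beside Stat2, was at 2.85 in CD8+ DCs, below the floor, against 4.68 in CD8- DCs. Ghdc, beside Stat5b, was at 4.45 in CD8+ DCs, against 4.19 in CD8- DCs, and Cavin1, a caveola coat gene beside Stat3, was at 3.86 and 3.92 in that order. The adenylate kinase gene Ak4, beside Jak1, was at 4.34 on both arrays. Il23a beside Stat2 and Insl6 beside Jak2 were below the floor on both arrays.

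The other pathway genes came from 11 lists of receptors, regulators, partners and targets, 125 genes in all. Of these, 118 had a single-gene probe set, 99 were measured, and 7 stood in more than 1 list. Among the 99, 25 were lower in CD8+ DCs by 2-fold or more and 2 were higher by that much, with a median log2 difference of -0.26. With sub-floor values raised to the floor, 23 were lower and 2 higher. The background shares at 2-fold were 5.97% lower and 3.55% higher, and the lists were drawn up with earlier results of these arrays known.

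Receptors upstream of the members included 5 genes of 24 measured that were at least 2-fold lower in CD8+ DCs and 0 that were higher (median -0.24), or 4 lower with sub-floor values raised to the floor. In the gp130 and IL-10 receptor list, which feeds STAT3, 7 of 8 measured genes were lower by any amount, against 44.8% of all measured genes. By at least 2-fold, 2 were lower. All 8 were above the floor in CD8- DCs and 6 in CD8+ DCs. The list median was -0.68 as measured and -0.23 with no filter. Il6st, which encodes gp130, the shared signalling chain of the IL-6 family, gave a log2 signal of 7.06 in CD8+ DCs, against 8.84 in CD8- DCs, or 3.44-fold lower, and its 4 probe sets ran from -1.78 to -1.35. Lifr, the LIF receptor gene, was at 3.04 in CD8+ DCs, against 5.64 in CD8- DCs, at least 3.47-fold lower. The IL-6 receptor gene Il6ra (5.95 in CD8+ DCs, against 6.89 in CD8- DCs) and the IL-10 receptor gene Il10ra (7.69 and 8.40 in that order) were lower by under 2-fold.

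The IL-12 receptor, which uses TYK2 and JAK2 and activates STAT4, was dim on both arrays. Its chain gene Il12rb2 gave a log2 signal of 4.89 in CD8+ DCs, against 4.66 in CD8- DCs. Il12rb1, the other chain, was below the floor on both, at 3.09 in CD8+ DCs, against 3.18 in CD8- DCs. The type I interferon receptor, the other well-known input to STAT4, was above the floor on both arrays. Ifnar1 was at 7.96 in CD8+ DCs, against 7.84 in CD8- DCs, and Ifnar2 was at 8.13 in CD8+ DCs, against 8.75 in CD8- DCs. Of the IFN-γ receptor genes, Ifngr1 was at 10.94 in CD8+ DCs, against 10.37 in CD8- DCs, and Ifngr2 was at 8.11 in CD8+ DCs, against 8.25 in CD8- DCs. None of the 4 measured interferon receptor genes reached 2-fold.

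Of 11 measured receptors of the IL-4, common chain and homodimeric group, 3 were at least 2-fold lower in CD8+ DCs as measured and 2 with the floor applied. Il21r, the IL-21 receptor gene, was 4.31-fold lower (log2 signal 4.58 in CD8+ DCs, against 6.68 in CD8- DCs). Il13ra1, the chain that pairs with the IL-4 receptor to bind IL-13, was 2.94-fold lower (6.04 in CD8+ DCs, against 7.59 in CD8- DCs), and its 4 measured probe sets ran from -1.88 to -1.44. The third, Il7r, was at 3.34 in CD8+ DCs, against 4.52 in CD8- DCs, a bound of at least 1.59-fold. The chains of the GM-CSF receptor differed little, with Csf2ra at 9.50 in CD8+ DCs, against 9.28 in CD8- DCs, and Csf2rb at 8.49 in CD8+ DCs, against 8.61 in CD8- DCs. Il4ra was at 6.10 in CD8+ DCs, against 6.38 in CD8- DCs. Epor, the erythropoietin receptor gene, was at 4.66 in CD8+ DCs, against 4.22 in CD8- DCs.

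Negative regulators divided. Of 22 measured, 3 were at least 2-fold lower in CD8+ DCs, 1 was at least 2-fold higher and 18 were under 2-fold (median 0.03). Ptpn6, which encodes the phosphatase SHP-1 that dephosphorylates Janus kinases, was 3.66-fold lower, with a log2 signal of 8.81 in CD8+ DCs, against 10.68 in CD8- DCs. Its probe sets were at -1.87 and -1.85. Socs2, a feedback inhibitor that STAT5 induces, was 4.54-fold lower (4.22 in CD8+ DCs, against 6.41 in CD8- DCs), and its 2 measured probe sets were at -2.18 and -1.57. Socs3, which binds gp130 and blocks STAT3 signalling, was 6.61-fold lower by its brightest probe set, while its 3 probe sets ran from -2.72 to -0.995. Cblb, which encodes a ubiquitin ligase that restrains receptor signalling, was 2.83-fold higher in CD8+ DCs by its brightest probe set (8.40 in CD8+ DCs, against 6.90 in CD8- DCs), and the lowest of its 3 probe set differences was 0.21. Cish, another feedback inhibitor that STAT5 induces, was at 4.18 on both arrays.

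None of the 12 adaptors and nuclear partners reached 2-fold (median -0.16). Irf9, the DNA-binding partner of STAT2, was at 8.37 in CD8+ DCs, against 8.51 in CD8- DCs. The coactivator genes Crebbp and Ep300 were at 8.01 and 7.78 in CD8+ DCs, against 8.36 and 8.11 in CD8- DCs. Ncoa1, another coactivator gene, was at 7.15 in CD8+ DCs, against 7.45 in CD8- DCs, and the adaptor gene Grb2 was at 9.01 and 9.22 in that order.

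Targets of the members held most of the pathway genes past 2-fold. Over the 5 target lists, 19 of 46 measured genes were lower in CD8+ DCs by 2-fold or more and 1 was higher by that much (median -0.78), and 18 were lower with sub-floor values raised to the floor. These genes answer to other factors as well, and the lists were drawn from knowledge of T cells, macrophages and other cells.

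In the STAT4 list, taken from mouse and human T cells, 3 of 6 measured genes were lower in CD8+ DCs by at least 2-fold. Tbx21, which encodes the transcription factor T-bet, gave a log2 signal of 2.60 in CD8+ DCs, against 5.34 in CD8- DCs, at least 2.81-fold lower. Hlx, a homeobox gene, was 3.26-fold lower, at 4.90 in CD8+ DCs, against 6.61 in CD8- DCs. Il18r1 was at 2.14 in CD8+ DCs, against 3.91 in CD8- DCs, a bound of at least 1.04-fold, so it was not past 2-fold once the floor was applied. Il18rap, the other chain gene of the IL-18 receptor, was at 4.49 in CD8+ DCs, against 4.82 in CD8- DCs. The median of the list was -1.02 as measured, -0.29 with sub-floor values raised to the floor and -0.33 with no filter. Ifng, the product for which STAT4 is best known, was below the floor at 2.41 in CD8+ DCs, against 2.33 in CD8- DCs.

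In the STAT2 and IRF9 list of interferon-stimulated genes, 8 of 15 measured genes were at least 2-fold lower in CD8+ DCs and none was higher by that much (median -1.22), beside Stat2 at -0.30 and Irf9 at -0.14. Ifit1 was at 3.27 in CD8+ DCs, against 5.93 in CD8- DCs, at least 4.24-fold lower, and Rsad2, which encodes viperin, was at 6.29 in CD8+ DCs, against 8.18 in CD8- DCs. Rtp4, a chaperone gene induced by interferon, had log2 signals of 2.90 in CD8+ DCs, against 9.05 in CD8- DCs, at least 36.8-fold lower. Oasl2, of the oligoadenylate synthetase family, was at 3.78 in CD8+ DCs, against 7.72 in CD8- DCs, at least 14.6-fold lower. Ifit3 was 12.5-fold lower (4.33 in CD8+ DCs, against 7.98 in CD8- DCs), and Oas1a was 7.78-fold lower (6.12 in CD8+ DCs, against 9.08 in CD8- DCs). Ifih1, which encodes the RNA sensor MDA5, and Xaf1 had differences of -1.46 and -1.22. Of the 15 genes, 2 were higher in CD8+ DCs by any amount. They were Mx1, at 7.88 in CD8+ DCs, against 6.96 in CD8- DCs, and Irf7, at 8.24 and 8.17 in that order. Mx2 was at 5.33 on both arrays. The list median was -0.91 with probe sets averaged. In the STAT3 list, 3 of 12 were at least 2-fold lower in CD8+ DCs (median -0.30). They were Socs3, the C/EBPδ gene Cebpd (4.22 in CD8+ DCs, against 6.63 in CD8- DCs) and the nuclear IκB gene Bcl3 (4.62 in CD8+ DCs, against 6.73 in CD8- DCs). Cebpb, the C/EBPβ gene, was at 5.15 in CD8+ DCs, against 6.08 in CD8- DCs. Of the others, Mcl1, Junb and Myc differed by -0.15, -0.29 and -0.16.

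The STAT5 list held 6 measured genes, of which Socs2 and Ccnd2 were at least 2-fold lower in CD8+ DCs. The median of the list was -0.46, and -2.18 with the floor at the 75th percentile of all values, which leaves fewer genes. Ccnd2, the cyclin D2 gene, gave a log2 signal of 3.96 in CD8+ DCs, against 8.51 in CD8- DCs, and its 7 probe sets ran from -5.12 to -1.92. Bcl2l1, a survival gene, was at 5.25 in CD8+ DCs, against 5.19 in CD8- DCs. The oncostatin M gene Osm was at 4.40 in CD8+ DCs, against 5.0 in CD8- DCs, and the kinase gene Pim1 was at 9.59 and 9.90 in that order. In the STAT6 list, known from IL-4-treated macrophages and lymphocytes, 3 of 8 measured genes were at least 2-fold lower in CD8+ DCs and 1 was higher. The list's median was -0.63 as measured, -0.28 with sub-floor values raised to the floor, -0.08 with no filter and -3.28 with the floor at the 75th percentile. Tgm2, the transglutaminase 2 gene, was at 4.66 in CD8+ DCs, against 10.25 in CD8- DCs, with 5 measured probe sets from -6.28 to -2.61. The lectin gene Clec10a was at 4.13 in CD8+ DCs, against 7.42 in CD8- DCs, and Klf4 was at 5.40 in CD8+ DCs, against 8.85 in CD8- DCs. The chemokine gene Ccl22 was the one higher in CD8+ DCs, at 6.10 in CD8+ DCs, against 4.66 in CD8- DCs. Arg1, Retnla and Chil3, typical STAT6 targets of macrophages, were below the floor on both arrays.

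**Figure D4:**
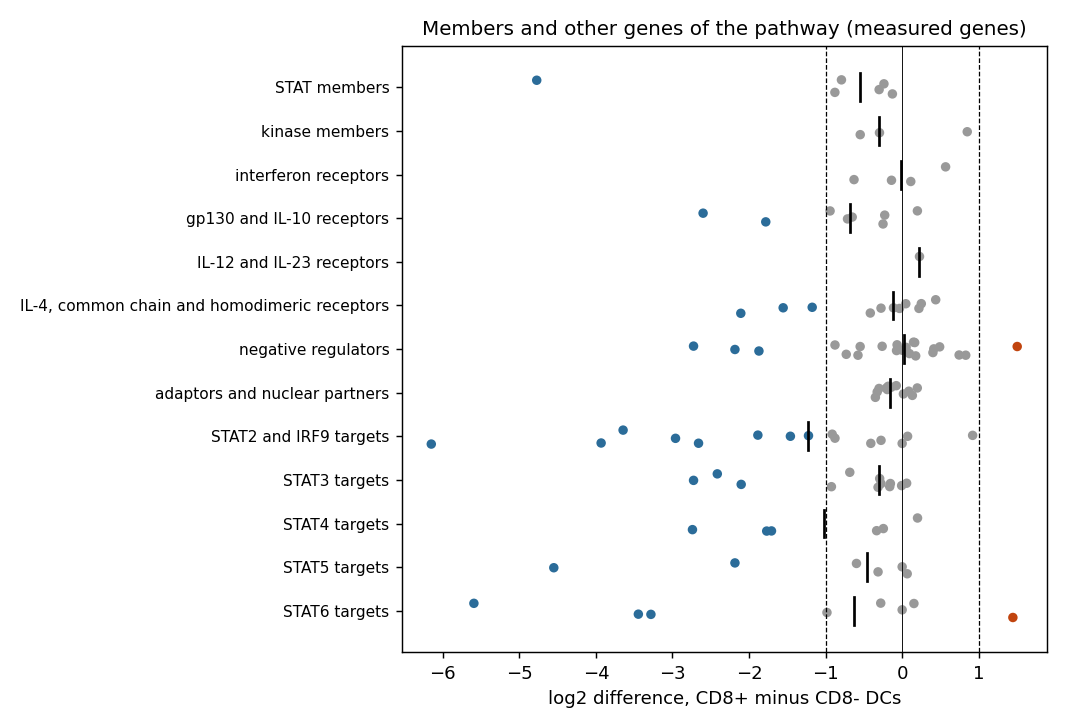
Log2 difference, CD8+ minus CD8- DCs (x axis), of each measured gene in the member lists and the 11 pathway lists (y axis), with the list median as a black bar and dashed lines at 2-fold; genes past 2-fold are orange where higher and blue where lower in CD8+ DCs. Kinases, interferon receptors and nuclear partners stay within 2-fold. Left of the lower line lie Stat4, 19 target genes, 5 receptors and 3 negative regulators, of which Socs2 and Socs3 are also among the targets.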

How the data were processed

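Spleen CD8+ and CD8- DCs were measured on 1 Affymetrix array each. The deposited log2 signal values were made by the authors with RMA, per the submitters' processing notes. The sources used here give neither its version nor which arrays shared the normalisation. Quantile normalisation hides a shift common to most transcripts. Both columns were used. Precision is limited by the number of arrays, and no detection calls were used.

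Gene names came from the platform annotation, updated by gene identifier to RefSeq symbols (34754 of 34958 single-gene probe sets matched). No member lay in a probe set of several genes. The floor was the median of all values, and differences are CD8+ minus CD8-. A dimmer value below the floor makes a fold "at least". Members and lists were chosen with earlier results of these data known. Named genes were Cd8a, all members, the 4 largest differences of each pathway list, direct neighbours and the 3 genes nearest to a member past 2-fold, and any gene past 2-fold could be named; others (receptor chains, partners and target genes under 2-fold or below the floor) were chosen after their values were seen. Promoter motifs were searched by exact match.

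Alternatives were median centring, a lowess trend (span 0.3), no filter, a floor at the 75th percentile, values floored, other choices of probe set, and thresholds of 1.5-fold and 4-fold. Calculations used Python 3.11.15, numpy 2.4.6, pandas 2.3.3, statsmodels 0.14.6 and matplotlib 3.10.9, and were tested on simulated data.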

Additional observations from a re-analysis of the deposited data

How the results depend on the processing

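All 72 values of the 9 members recomputed under 8 alternatives kept their sign, and 69 moved by less than the pooled SD of 0.30 between probe sets. The others were Stat4 at -3.77 with sub-floor values raised to the floor, Stat3 at -0.73 with the probe set of largest difference, and Tyk2 at 0.51 with its probe sets averaged. Many of the 72 values could not move or change sign, so these counts say little about robustness. Dropping the filter or using a higher floor left every member's value unchanged, because a filter only selects genes. Raising sub-floor values to the floor could change Stat4 alone. Averaging probe sets or taking the largest difference could not reverse a sign, because the probe sets of each member shared it. The range of Stat4 was -4.83 to -3.77. At 1.5-fold, 3 members were lower and 1 higher in CD8+ DCs. Of all measured genes, 968 were higher and 1314 lower at the 1.5-fold threshold, while 98 were higher and 239 lower at the 4-fold one. Of the pathway genes, 5 were higher at 1.5-fold, 0 at 4-fold and 1 with probe sets averaged, and 16 were lower at 4-fold. Of 87 recomputed list medians, 8 moved by more than the same SD, 6 of them in the STAT4, STAT5 and STAT6 target lists, and the cause was not tested. No member probe set ended in _x_at or _s_at, so leaving those out left the members' values as they were. The brightest probe sets of the pathway genes Socs3 and Tgm2 did end in _x_at. With _x_at and _s_at probe sets left out, 24 pathway genes were lower by 2-fold or more, against 25 with them. No paired analysis was possible because each population has 1 array. Background at the CD8+ value of Stat4 limits its difference to a bound.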
